A study of Mus musculus with 8 samples.

Results

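The step from 45 to 60 min after TNF was examined in the chromatin-associated RNA of wild-type mouse embryonic fibroblasts, gene by gene, to separate transcripts already falling from those still climbing. A gene was included if the higher of the 45 and 60 min wild-type libraries held at least 20 counts. This rule kept 12882 of the 45706 genes in the count table. All cells were primary embryonic fibroblasts of C57BL/6 embryos, either wild-type (WT) or crel-/-rela-/- (KO), which lack the NF-kB subunits cRel and RelA. Both genotypes were held overnight in low serum and then given TNF at 10 ng/ml, with 1 library each at 0, 15, 45 and 60 min. The same step in the KO libraries served as the reference for noise and scaling.

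Each group is 1 library, so there were no replicates and intervals cover counting error only. Nothing in the labels says whether the libraries came from separate cultures or embryos, and no library at 45 or 60 min was left without TNF. The effect of TNF therefore cannot be told apart from that of time in culture or handling within this step. The WT libraries held 13842837 counts at 45 min and 12694420 at 60 min, and the KO libraries 15402373 and 12674536. The models Gm26917 and Gm42418 and the long noncoding RNA Malat1 took 62.9% and 60.7% of the WT counts at 45 and 60 min, against 70.6% and 63.4% in the KO. After scaling by TMM, a method that sets most genes to no change, WT counts at 45 and 60 min can be compared almost directly. Counts of Rela remained in the KO, at 291 and 324 against 704 and 589 in WT, and counts of Rel were 538 and 633 in the KO. The sources used here do not state which parts of the alleles were deleted, so these counts do not check the labels. The cultures also differed beyond the labelled genotype: Xist, expressed from the inactive X chromosome of female cells, had 21886 counts in WT at 45 min against 29 in the KO.

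TNF binds its receptor on fibroblasts and activates a kinase that marks IkB proteins for destruction, which frees NF-kB dimers such as RelA with p50 to enter the nucleus and bind kappaB sites. Among the genes these dimers switch on are their own inhibitors, such as Nfkbia (IkB-alpha) and Tnfaip3 (A20), which end the signal, and chemokines, adhesion molecules and antigen presentation genes. Chromatin-associated RNA is mostly newly made RNA still attached to its template, so its level follows transcription more closely than that of mature mRNA.

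Promoters of 4 genes that went different ways in this step are shown here, from 250 bases before to 50 after the RefSeq start (build GRCm38.p6, plus strand). In WT, Ccl20, Cxcl2 and Vcl fell and Gbp5 rose. Capitals mark matches to the kappaB motif in Ccl20 (chr1:83116516-83116815) and Cxcl2 (chr5:90903649-90903948), where a pair of matches overlap. In Gbp5 (chr3:142496684-142496983) they mark, from the 5′ end, matches to GAS (TTCNNNGAA), ISRE (the interferon-stimulated response element: GAAA, any 2 bases, GAAA; here on the other strand), kappaB and GAS again. In Vcl (chr14:20929148-20929447) they mark a match to the CArG box, the motif bound by serum response factor.
Ccl20: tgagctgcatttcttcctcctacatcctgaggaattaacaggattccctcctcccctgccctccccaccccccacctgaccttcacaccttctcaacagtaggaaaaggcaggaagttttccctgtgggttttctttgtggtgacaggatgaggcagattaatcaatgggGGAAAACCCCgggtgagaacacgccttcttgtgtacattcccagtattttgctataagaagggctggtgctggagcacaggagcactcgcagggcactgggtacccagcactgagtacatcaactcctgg
Cxcl2: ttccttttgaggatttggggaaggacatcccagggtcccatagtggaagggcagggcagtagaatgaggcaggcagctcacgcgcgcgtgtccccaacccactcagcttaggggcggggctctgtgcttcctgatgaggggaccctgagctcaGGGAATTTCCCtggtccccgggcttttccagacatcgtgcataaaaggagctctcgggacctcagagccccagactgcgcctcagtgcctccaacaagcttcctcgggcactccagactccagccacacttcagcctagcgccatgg
Gbp5: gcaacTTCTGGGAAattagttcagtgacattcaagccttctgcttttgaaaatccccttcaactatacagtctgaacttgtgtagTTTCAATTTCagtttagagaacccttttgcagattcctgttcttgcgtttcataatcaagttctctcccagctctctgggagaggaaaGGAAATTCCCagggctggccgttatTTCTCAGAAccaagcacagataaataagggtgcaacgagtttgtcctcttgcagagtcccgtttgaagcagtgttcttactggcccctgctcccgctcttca
Vcl: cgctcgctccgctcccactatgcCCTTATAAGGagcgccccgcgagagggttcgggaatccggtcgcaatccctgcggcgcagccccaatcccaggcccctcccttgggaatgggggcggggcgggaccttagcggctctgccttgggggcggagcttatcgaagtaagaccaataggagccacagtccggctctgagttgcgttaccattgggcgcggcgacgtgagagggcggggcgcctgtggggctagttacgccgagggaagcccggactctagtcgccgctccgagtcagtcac
A match is a run of letters, and binding was not measured here. The Gbp5 start in RefSeq lies inside the gene as the count table places it.

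A step was called where the scaled counts differed by at least 1.5-fold and the 95% interval of the ratio excluded no change. In WT, 522 genes were higher at 60 than at 45 min (4.05% of the 12882) and 402 were lower (3.12%). In the KO, 488 of the same genes were higher (3.79%) and 468 lower (3.63%). The numbers called were thus similar in the genotype that lacks both NF-kB subunits. The median WT step was 0.00 on the log2 scale, with 5% of genes under -0.58 and 5% over 0.62, and the corresponding KO limits were -0.63 and 0.62. Calls were more frequent at low counts, with 6.31% higher and 5.19% lower among genes of 20 to 49 counts and 7.79% and 5.68% at 50 to 99, against 0.857% and 1.33% at 1000 counts and over. The split depended on scaling: 56.5% of WT calls were higher with TMM and 79.2% with total counts, which raised the median WT step by 0.11. For the KO the same change moved that share from 51.0% to 97.6% and the median by 0.36. At the count floor, 138 genes with 20 counts in the higher WT library had a median step of -0.02, and 122 genes with 19 counts had 0.01.

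**Figure D1:**
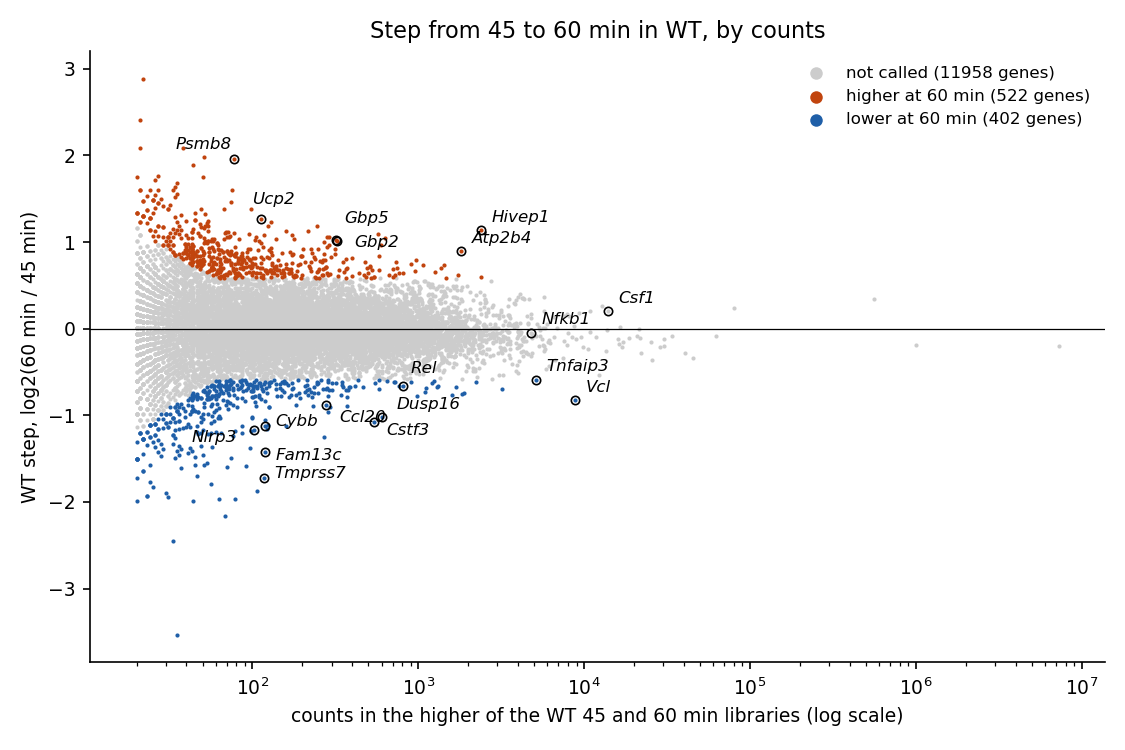
WT step, the log2 ratio of TMM-scaled counts at 60 over 45 min (vertical axis), against counts in the higher of both libraries (log axis); each point is 1 gene, and circles mark named genes. The 522 higher genes include Hivep1 and Atp2b4 at over 1000 counts, and Vcl and Tnfaip3 stand among the deepest of the 402 lower genes.

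Several feedback inhibitors of NF-kB were past their highest measured level by 60 min, but few falls passed the call. Tnfaip3 (chr10:19000910-19015657), whose product A20 edits ubiquitin chains to stop the signal, had 109, 1086, 5115 and 3368 counts in WT at 0, 15, 45 and 60 min. It fell by 0.59 on the log2 scale (interval -0.65 to -0.53) after a steep rise. In the KO it had only 42, 22, 51 and 29 counts, and a step of -0.90. The WT call was lost on total counts and when the trend with GC content was removed. Nfkbia, the classical IkB, followed a similar course with 204, 1916, 3264 and 2527 counts, and its step of -0.36 fell short of 1.5-fold. Of the 6 IkB family genes, only Nfkbid, a nuclear family member, was called, at 212 counts falling to 134 (-0.65), a call lost on total counts. Nfkbie stood at 1100 and 1211 counts and Bcl3 at 687 and 780, with steps of 0.15 and 0.20. Of 16 genes of ubiquitin and signalling feedback, Tnip3 and Tnfaip3 fell (12.5%, against 3.12% of all genes) and Traf3 rose (6.25%, against 4.05%). Traf3, an adaptor that restrains the noncanonical pathway, rose from 850 to 1370 counts in WT (0.70) and from 129 to 217 in the KO (0.67).

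Among the NF-kB subunit genes, 1 of 5 was called. Rel, the gene of cRel, went through 151, 173, 805 and 506 counts in WT, against 478, 308, 538 and 633 in the KO. It fell by 0.66 in WT, while the KO step was 0.15, a difference of -0.81 (interval -1.04 to -0.58). This WT call was also lost on total counts. The other subunit genes were not called. Nfkb1, encoding p105 and p50, had 4811 and 4615 counts (-0.05), Nfkb2 2575 and 2426 (-0.07), Relb 1556 and 1412 (-0.13) and Rela 704 and 589 (-0.24).

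Of 13 chemokine genes, whose products draw leukocytes, 2 fell (15.4%), 2 rose (15.4%) and 9 were not called. Over all genes 3.12% fell and 4.05% rose. Ccl20, a ligand of CCR6, had 3, 39, 279 and 150 counts in WT and at most 1 in any KO library, and fell by 0.88 (interval -1.18 to -0.59). Cxcl2, a neutrophil attractant, had 3, 206, 347 and 220 counts and fell by 0.64, a call lost on total counts. Both carry the kappaB matches shown above, and both were still far over their 0 min level at 60 min. Cx3cl1 went the other way, with 41, 36, 311 and 509 counts and a rise of 0.72, and Ccl5 rose from 19 to 45 counts (1.26, interval 0.45 to 2.11). Ccl2, which attracts monocytes, had 1767 and 2051 counts (0.23), and Ccl7 had 994 and 1027 (0.06). Cxcl10 stood at 688 and 715 counts, and Cxcl1, which had 577 counts already at 15 min, at 567 and 422 (-0.41).

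**Figure D2:**
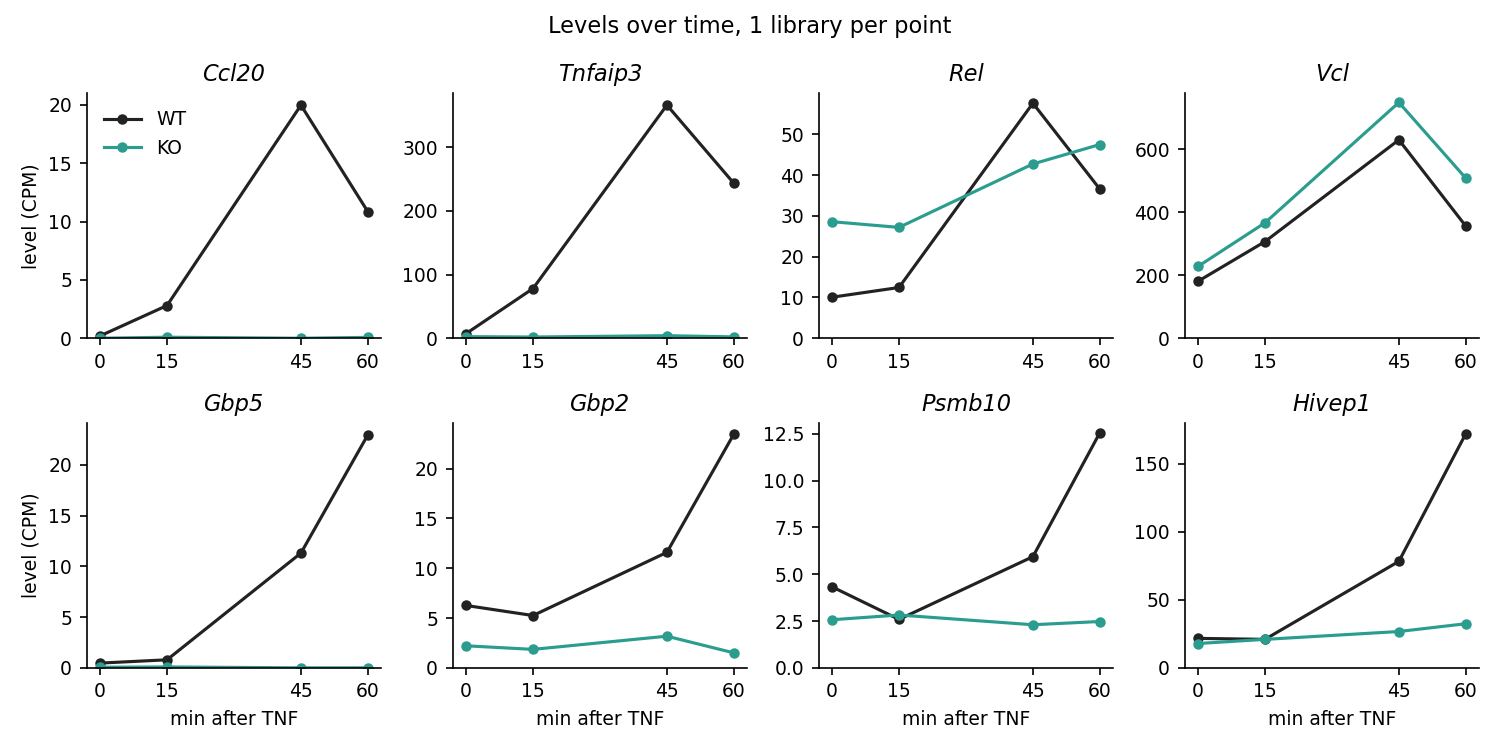
Levels of 8 genes as counts scaled by TMM library size (CPM) (vertical axis, from 0) against min after TNF, with WT in black and KO in green; each point is 1 library and there is no error bar. In WT, Ccl20, Tnfaip3, Rel and Vcl were lower at 60 than at 45 min and Gbp5, Gbp2, Psmb10 and Hivep1 higher, and Vcl took a similar course in the KO.

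Adhesion, protease and cytokine genes mostly lay under the call. Of 16 adhesion and matrix proteolysis genes, 2 fell (12.5%, against 3.12% of all genes) and 1 rose (6.25%, against 4.05%). The 1 that rose, Mmp9, a gelatinase, went from 22 to 41 counts (0.91). Sele, the endothelial selectin, fell from 86 to 39 counts (-1.13) and Plau, the urokinase protease, from 376 to 229 (-0.70), with a KO step of -0.62. Vcam1, the integrin ligand, had 708, 1403, 6154 and 4525 counts and a step of -0.43, and the KO step was also -0.43. Icam1 had 1204 and 1314 counts (0.14). Of 18 cytokine and growth factor genes, Tnf fell from 53 to 30 counts (-0.81) and Il34, a ligand of the CSF1 receptor, rose from 28 to 50 (0.85). Each was 5.56% of that list, where 3.12% of all genes fell and 4.05% rose. Csf1, the growth factor of macrophages, had 1254, 1455, 12164 and 13844 counts, and its step of 0.20 was not called. Il6 stayed low at 22 and 14 counts. None of 12 survival genes was called in WT, Birc3 standing at 1199 and 960 counts (-0.31). Irf1, an interferon regulatory factor induced by NF-kB, had 224, 1162, 4053 and 3110 counts (-0.37), and Ripk2, the kinase that relays NOD signals, 2458 and 1903 (-0.36).

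The antigen presentation list had the largest share of higher WT calls among the 31 lists with at least 3 members. Of its 17 genes, 8 rose in WT and none fell, against 4.05% and 3.12% of all genes, and the median WT step was 0.55 against 0.00 over all genes. In the KO none of the 17 rose, 2 fell (B2m and Calr), and the median step was -0.08. The difference of steps was called higher in WT for 10 of the 17 and lower for 1 (Nlrc5), where 4.45% and 3.14% of all genes were called in those directions. On total counts the differences higher in WT numbered 4 and the WT rises 11, and the KO median was 0.28, against 0.37 over all genes. The immunoproteasome, which cuts proteins into peptides for class I molecules, provided 5 of the 8. Psmb8 went from 20 to 77 counts (1.96, interval 1.23 to 2.75) and Psmb9 from 11 to 35 (1.68). In the KO Psmb8 had only 4 and 8 counts and Psmb9 4 and 7, with steps of 0.92 and 0.73 that were not called. For Psmb8 and Psmb9 the difference of steps was not called either. Psmb10 had 65, 36, 83 and 174 counts in WT, against 43, 32, 29 and 33 in the KO, a WT rise of 1.08 (interval 0.70 to 1.48). The activator subunits Psme1 and Psme2 rose from 110 to 195 and from 108 to 203 counts (0.84 and 0.92). Tap2, a chain of the peptide transporter, rose from 120 to 225 counts (0.92), while its partner Tap1 had 274 and 332 (0.29). Erap1, which trims peptides, and Tapbpl, a peptide editor, rose by 0.70 and 0.80. The heavy chains moved less: H2-K1 had 952 and 1168 counts (0.31), H2-D1 706 and 751 (0.10) and H2-Q4 184 and 257 (0.50), reads that near-identical class I genes can share. Psmb9 and Tap1 overlap on opposite strands in the deposited coordinates, so how their reads were divided is uncertain.

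Of 31 interferon-response genes 3 rose (9.68%, against 4.05% of all genes). All 3 were guanylate-binding proteins, which are interferon-inducible GTPases of cell-autonomous defence. Gbp5 (chr3:142493978-142522344) had 7, 11, 158 and 318 counts in WT, a rise of 1.02 (interval 0.74 to 1.31), and 1, 1, 0 and 0 counts in the KO, where no step can be given. Gbp2 (chr3:142620602-142638008) had 94, 73, 162 and 325 counts in WT, against 37, 21, 40 and 20 in the KO. Its WT step of 1.02 and KO step of -1.08 went opposite ways, a difference of 2.08 (interval 1.27 to 2.89). Gbp7 rose from 70 to 123 counts (0.83), and Gbp3 had 161 and 177 (0.15). In the same list, Ifit3b, Mx1 and Ifi44 fell (9.68%, against 3.12% of all genes), from 21 to 9, from 49 to 28 and from 154 to 100 counts. The list's median WT step was 0.00. All 3 of these calls were lost on total counts, and those of Ifit3b and Ifi44 also when the GC trend was removed.

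Outside these lists, the highest WT steps at 100 counts or more were those of Ucp2 (1.27), Tmod2 (1.23), Col8a2 (1.19), Grasp (1.19), Hivep1 (1.14), Zhx2 (1.13), Gdpd5 (1.13), Txnip (1.09), Dpagt1 (1.08), Fkbp5 (1.05) and Ankrd33b (1.05). Hivep1, a zinc finger protein that binds kappaB-like sites, was by far the deepest, with 325, 291, 1093 and 2383 counts in WT. Its KO counts were 299, 237, 336 and 432, and the WT step exceeded the KO step by 0.86 (interval 0.63 to 1.09). Ankrd33b had 4, 9, 136 and 280 counts in WT, and at most 4 in the KO. Ucp2, a mitochondrial carrier, had 143, 83, 47 and 112 counts, so its rise at 60 min followed a fall and stayed under the level at 0 min. Socs3, a feedback inhibitor of JAK-STAT signalling, rose from 68 to 129 counts (0.94), and Socs1 from 58 to 87 (0.60), a call lost when the GC trend was removed. Nod1, a sensor of bacterial peptidoglycan, rose from 233 to 374 (0.70), and Lfng, which modifies Notch receptors, from 83 to 151 (0.88). Atp2b4, a calcium pump chosen after its values were seen, had 379, 326, 983 and 1814 counts in WT, against 324, 247, 254 and 232 in the KO. Its rise of 0.90 in WT exceeded the KO step by 1.11 (interval 0.83 to 1.39).

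The lowest WT steps at 100 counts or more were those of Tmprss7 (-1.73), Fam13c (-1.42), Nlrp3 (-1.17), Lims2 (-1.16), Cybb (-1.13), Cstf3 (-1.08), Dusp16 (-1.02), Reps2 (-1.02), Fgd4 (-0.97), Lmod1 (-0.90), Plek (-0.90) and Lpcat2 (-0.90). Dusp16, a phosphatase that turns off JNK and p38 kinases, had 194, 215, 604 and 295 counts in WT against 235, 187, 508 and 441 in the KO. Its fall was larger in WT by 0.73 (interval -1.01 to -0.46). Fam13c fell in WT from 119 to 44 counts, while the KO had 80 and 96. Cstf3, a subunit of the factor that cleaves pre-mRNA 3′ ends, fell alike in both genotypes, from 537 to 252 and from 489 to 258 counts.

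Several of the lowest genes are known from macrophages. Nlrp3, the inflammasome sensor, had 26, 106, 102 and 45 counts in WT, and Cybb, the phagocyte oxidase subunit, 48, 25, 119 and 54, and both had 0 counts in every KO library. Mrc1, the mannose receptor, fell from 286 to 165 counts (-0.78) and Csf1r from 248 to 159 (-0.63, a call lost on total counts), with at most 4 KO counts at 45 or 60 min. These were 2 of the 9 macrophage markers among the members (22.2%, against 3.12% of all genes). Lyz2 (115 and 147) and Adgre1 (72 and 88) did not go down. Summed over all 13 listed markers, the WT level was 77.6 CPM at 45 min and 64.4 CPM at 60 min, where the KO had 6.27 and 6.83 CPM. In WT 1 of the 13 markers was at 0 at these times, and in the KO 8 and 5 were. In such bulk libraries fewer cells of a type and less RNA per cell cannot be told apart, and the part of these cells in the steps of Nlrp3, Cybb and Plek was not tested. None of the 21 fibroblast genes was called in WT; Col1a1 had 33931 and 31601 counts and Fn1 61991 and 57765. No erythroid, epithelial or muscle marker reached the count floor.

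**Figure D3:**
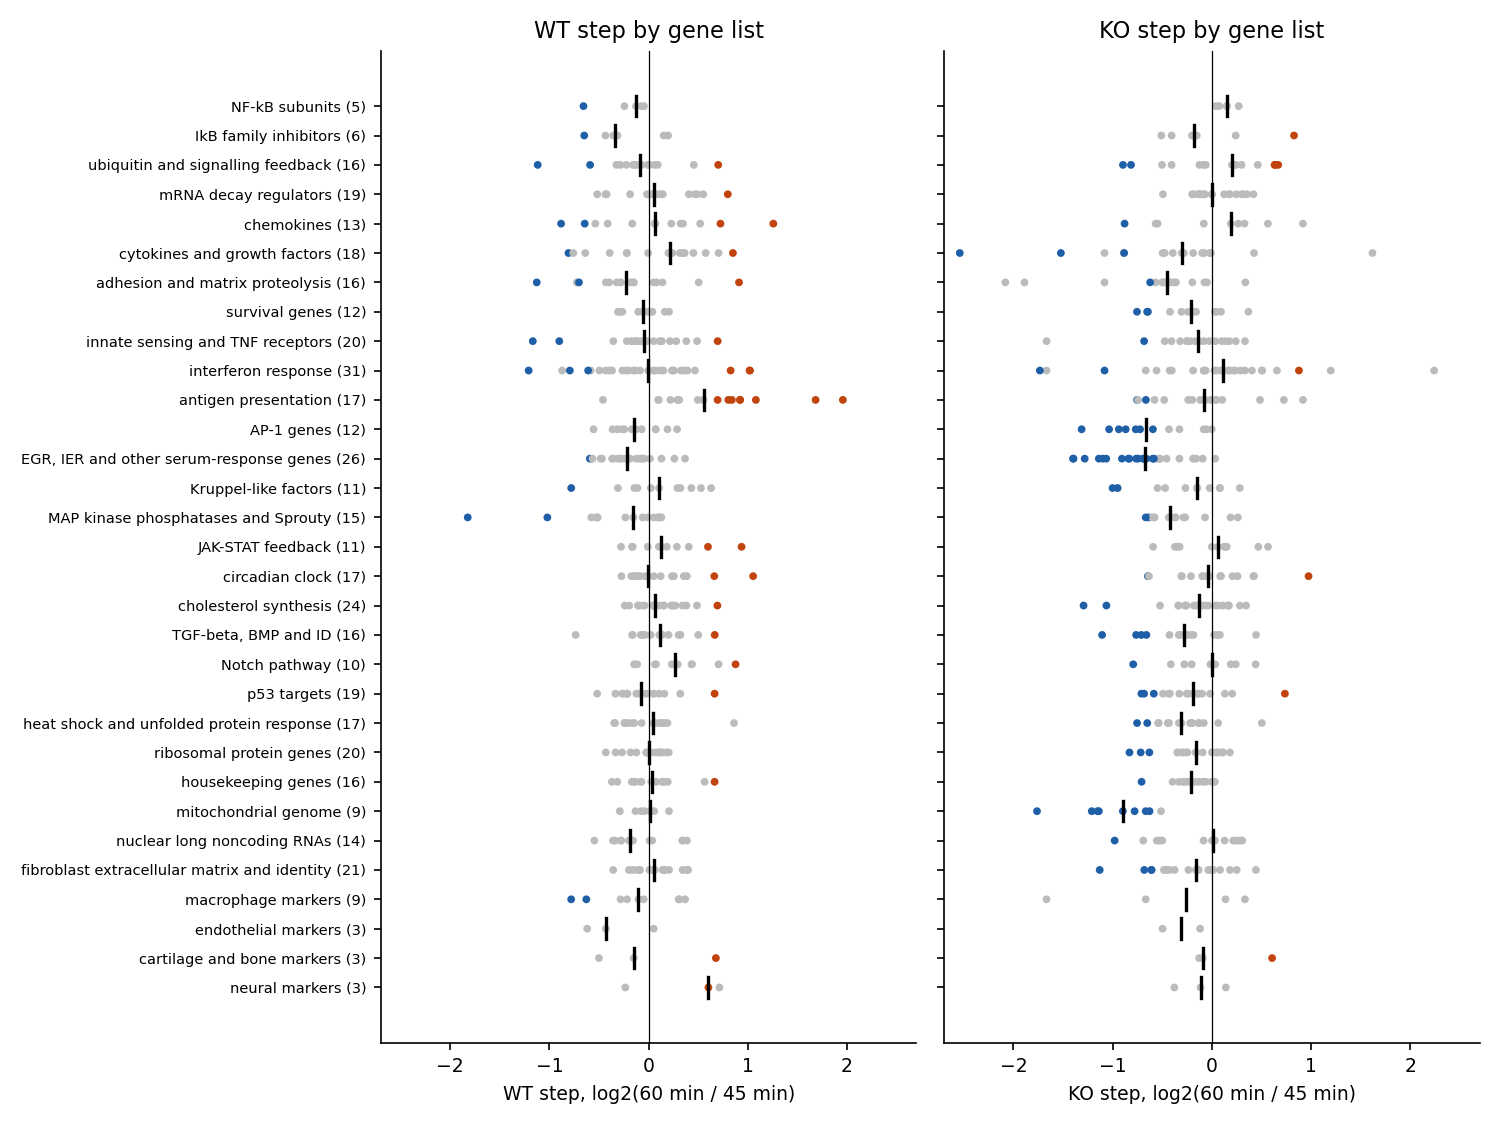
Step of each member of 31 gene lists (horizontal axis, log2 of 60 over 45 min) in WT and KO; points are genes, red called higher, blue called lower and grey not called, and black bars are list medians over the genes with counts at both times. The antigen presentation row leans right only in the WT panel, and the AP-1, EGR and mitochondrial rows lean left in the KO panel.

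Genes were also sorted into waves in which the 45 and 60 min counts entered only as a sum or not at all. Of 119 early genes, at least 2-fold over 0 min at 15 min, 19 fell (16.0%) and 3 rose (2.52%), with a median WT step of -0.22. Of 617 late genes, at least 2-fold over 0 min for the summed later counts but not early, 81 rose (13.1%) and 26 fell (4.21%), with a median of 0.12. The 11945 other genes rose in 3.57% and fell in 2.83% of cases. The early genes thus leaned down and the late genes up. In the KO the same early genes fell in 22.7% of cases (3.63% of all genes) with a median of -0.27, but on total counts 9 of these genes fell in the KO, 9 rose and the median was 0.09. The late genes rose in 6.65% and fell in 5.35% of cases there (3.79% and 3.63% of all genes), with a median of 0.01. On total counts these late genes had 148 rises, 1 fall and a median of 0.37 in the KO. That scaling raised the KO median over all genes to 0.37 as well, so the early median of 0.09 lay under it. At 15 min 59 of the early genes had their highest WT level, 37 were highest at 45 min and 23 at 60 min. Of the 19 early genes that fell, 4 were highest at 15 min and 15 at 45 min. The time of the highest level uses the same counts as the step, so no gene highest at 60 min could fall. In WT the medians of both waves kept their sign on total counts.

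**Figure D4:**
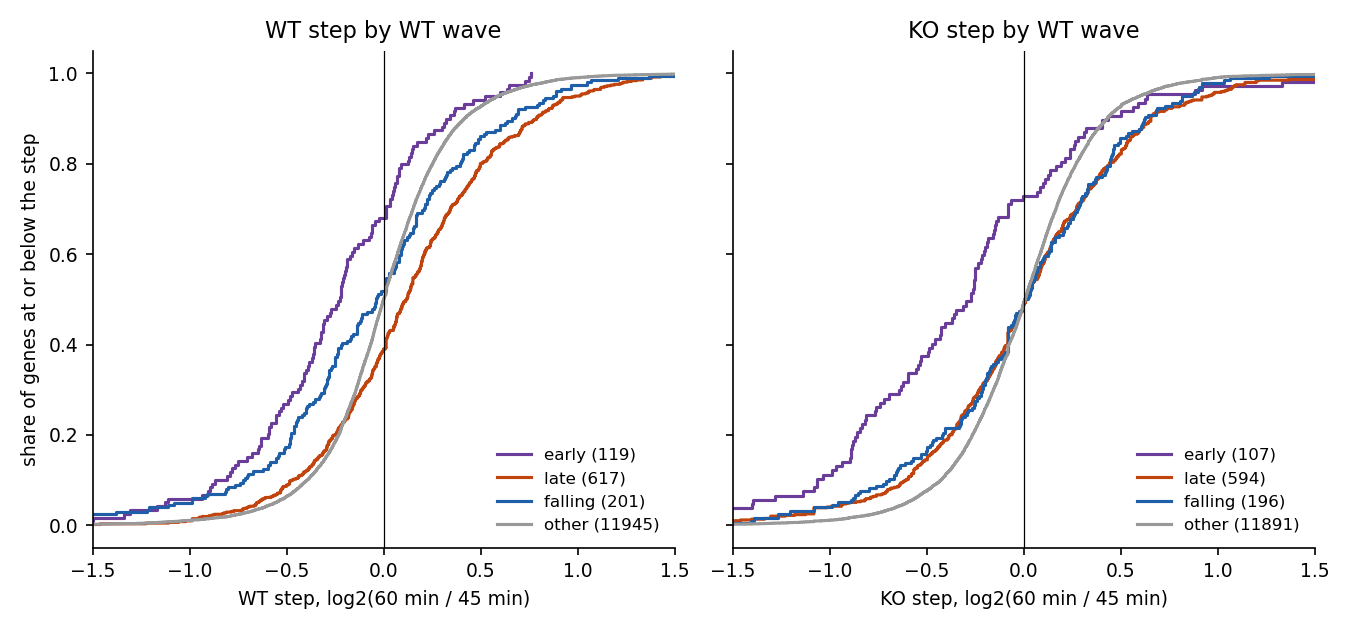
Share of genes at or below a given step (vertical axis) against the step (log2 of 60 over 45 min) for the 4 WT waves, in WT and KO; the number of genes with a finite step is in the key. At the medians, the early curve lies left of the others in both panels and the late curve right of the others in the WT panel. The curves cross towards the ends. In WT 5% of late genes lay under -0.65, against -0.56 for the genes named other.

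The RefSeq table held a promoter for 9219 of the 12882 genes, and motifs were searched on both strands. A kappaB match was found in 4.51% of all 32851 promoters of that length and in 6.43% of the members with a promoter. Members were counted by gene, with a match in any promoter of the gene. Such a match was found in 15 of the 59 early genes with a promoter (25.4%) and in 69 of the 402 late genes (17.2%). Within the early genes, 5 of the 11 that fell and 10 of the 46 without a call held a match. Within the late genes, it was in 10 of the 53 that rose (18.9%), 2 of the 16 that fell and 57 of the 333 without a call (17.1%). Among late genes the motif was therefore about as frequent with a rise as without a call. Of the genes described above, a kappaB match was found in the called genes Ccl20, Cxcl2, Tnfaip3, Rel, Nfkbid, Tnip3, Nlrp3, Hivep1, Traf3, Grasp and Gbp5. It was also found in Nfkbia, Nfkbie, Nfkb2, Cxcl1, Cxcl10, Csf1, Il6 and Irf1, whose steps were not called. In the antigen presentation list, 4 of the 14 genes with a promoter held kappaB (H2-K1, H2-D1, H2-Q4 and B2m) and 4 held ISRE. Over all members with a promoter these shares were 6.43% and 3.67%. None of the 6 antigen presentation genes with a promoter that rose held kappaB. An ISRE match also stood in Gbp2, Socs1 and Ifit3b.

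Part of the step was common to both genotypes. Over 6799 genes with at least 100 counts in all 4 libraries, the WT and KO steps correlated across genes with Pearson's r of 0.42 and Spearman's rho of 0.38. These genes are not independent, and depth and base composition are shared between the axes: the step correlated with the GC content of the transcript at 0.23 in WT and 0.17 in the KO. Called in both genotypes were 105 genes higher and 59 lower, while 16 rose in WT and fell in the KO and 5 did the reverse. edgeR's quasi-likelihood test of time, with genotype as a term, had 1 residual degree of freedom. The spread it uses is that between the steps of both genotypes, not that between replicate cultures. It called 388 genes higher (3.01%) and 284 lower (2.2%) at an adjusted p under 0.05. The test estimates a single time effect over both genotypes, so a call does not show a step in each. Gbp5, Nlrp3 and Cybb were among the called genes, each with 0 KO counts at 45 and 60 min. On total counts the same test called 405 higher and 15 lower. DESeq2 on the same 4 libraries called 13 higher and 25 lower, all of them also called by edgeR. edgeR over all 8 libraries called 0 higher and 2 lower, with 1412 genes at an unadjusted p under 0.05. The number of calls for the time effect thus differed between tools, libraries and scalings.

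The 25 genes lower and 13 higher by both tools were not chosen from a list, though some, such as Klf7, Egr1 and Arntl, are list members. Some, such as Cstf3, Klf7 and Arntl, were named by the rule for shared steps. Others described here, such as Vcl, were chosen after their values were seen. The p-values do not measure spread between replicate cultures. On total counts edgeR kept 3 of the 25 lower (Cstf3, Lmod1 and Gm37488) and all 13 higher. Vcl, the gene of vinculin, which ties integrin adhesions to actin (chr14, promoter shown above), had 2716, 4267, 8802 and 4928 counts in WT, against 3815, 4154, 9430 and 6772 in the KO. Both genotypes peaked at 45 min, and the step was -0.82 in WT and -0.56 in the KO (edgeR shared step -0.69, SE 0.11, adjusted p 3.15e-07; DESeq2 adjusted p 0.000886); on total counts edgeR's adjusted p was 0.231. Palld (palladin) went from 1824 to 1075 counts in WT and from 1922 to 1139 in the KO, and Fermt2 (kindlin-2), an integrin activator, from 1591 to 930 and from 1180 to 768. The others were Cstf3, Lmod1, Csrp1, Klf7, Egr1, Tagln, Acta2, Rhoj, Ctps, Frmd6, Homer1, Lima1, Wdr1, Stat3, Ifrd1, Pdlim5, Lama4, Rock2, Itgav, Tpm1, Eprs and the model Gm37488. Acta2, smooth muscle actin, went from 2007 to 1463 counts in WT and from 1815 to 981 in the KO. Klf7, a Kruppel-like factor, fell by 0.78 and 0.95, and Stat3 had steps of -0.58 and -0.56. Among the 13 higher by both tools, Arntl, the clock gene of BMAL1, had 103, 113, 141 and 290 counts in WT, against 157, 111, 151 and 314 in the KO. It rose by 1.05 and 0.97 (edgeR shared step 1.01, SE 0.15, adjusted p 1.59e-08; DESeq2 adjusted p 0.0271). Of 17 clock genes only Arntl and Dbp rose in WT (11.8%, against 4.05% of all genes). The call of Dbp was lost when the GC trend was removed, and Per1, Per2, Cry1 and Nr1d1 lay between -0.14 and 0.05. Txnip, an inhibitor of thioredoxin, rose from 271 to 571 counts in WT, with 284 and 444 in the KO. Ssh1, a phosphatase of the actin regulator cofilin, rose from 435 to 733 in WT and from 476 to 837 in the KO.

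**Figure D5:**
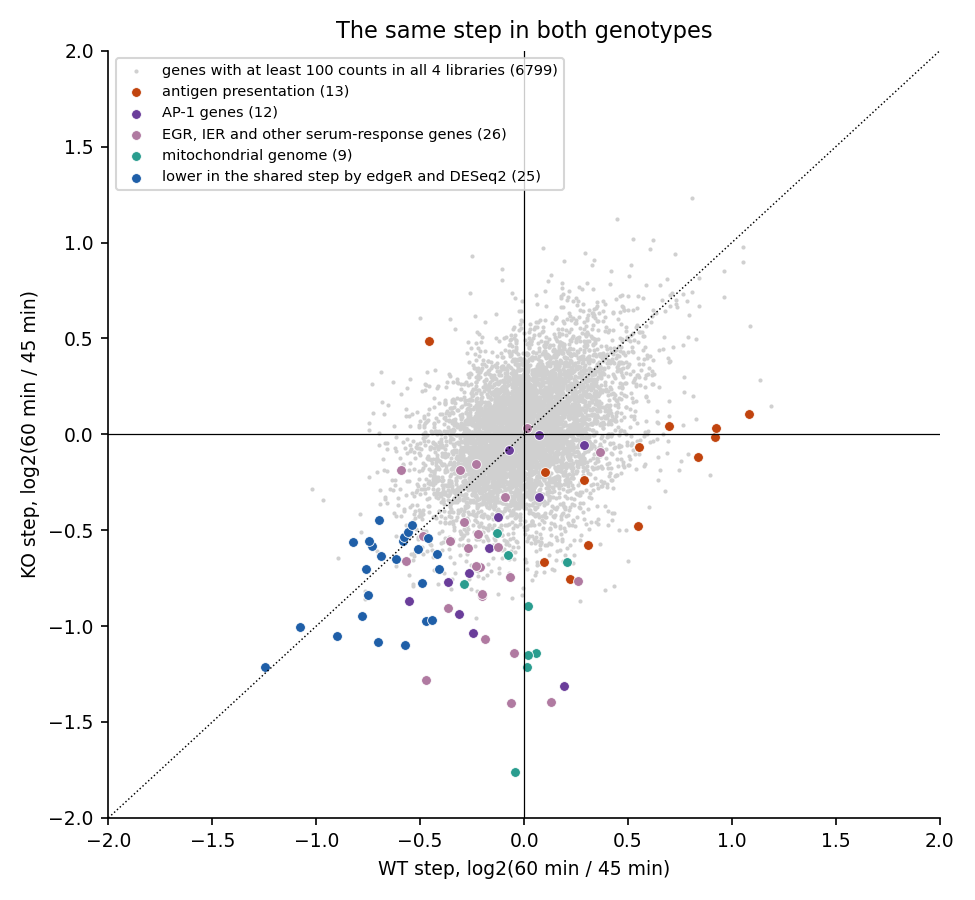
KO step (vertical axis) against WT step (horizontal axis), both log2 of 60 over 45 min, for 6799 genes with at least 100 counts in all 4 libraries (grey), for members of 4 lists with at least 20 counts in a KO library, and for the 25 genes lower by both tools. These 25 were chosen for low steps in both genotypes and lie at the lower left, antigen presentation genes apart from Nlrc5 to the right at KO steps of 0.10 or lower, and mitochondrial genes between -0.29 and 0.20 in WT but at -0.51 or lower in the KO.

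Other groups had more lower calls in the KO than in WT. The AP-1 genes, which encode the Jun and Fos families, had a median step of -0.15 in WT with none of 12 called, and of -0.66 in the KO with 7 lower, where 3.63% of all genes were lower. On total counts 2 of the 7 KO calls were left and the KO median was -0.30. Fos had 218, 448, 73 and 61 counts in WT, against 300, 866, 124 and 64 in the KO, so the later step in WT started from a level already under that at 0 min. Junb went from 974 to 777 counts in WT (-0.31) and from 478 to 264 in the KO (-0.94). Of 26 EGR, IER and other serum-response genes, 1 fell in WT and 16 in the KO, with medians of -0.22 and -0.67. On total counts these were 0 and 6, with medians of -0.11 and -0.31. Egr1, at 653 and 435 counts, was just short of the call in WT (-0.57), and fell from 798 to 394 counts in the KO (-1.10). RNA of other kinds also differed between the KO libraries at 45 and 60 min. Of 9 mitochondrial genes, none was called in WT (median 0.02) and 8 fell in the KO (median -0.90), mt-Rnr2 going from 295 to 92 counts. On total counts 4 of the 8 were left. Summed over the listed mitochondrial genes, the KO level went from 361.6 CPM at 45 min to 214.4 CPM at 60 min. The WT level also moved between earlier libraries, from 517.5 CPM at 0 min to 276.7 CPM at 15 min. Ribosomal protein genes had medians of 0.00 in WT and -0.16 in the KO, the latter turning positive on total counts. These values move with the differences between the genotypes, and their part in the AP-1, EGR and antigen presentation differences was not tested. On total counts 10.5% of the called differences were higher in WT, against 58.6% with TMM. On that scaling the KO median over all genes was 0.37.

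Among genes with at least 100 counts in the higher WT library, the largest differences of steps came mostly from KO steps. This filter set no floor for the KO counts. At 45 and 60 min these were 12 and 28 for Pik3r5, 19 and 50 for Syk, and 23 and 11 for Arhgap45. Wdr91, Pik3r5, Pde8a and Syk were called lower in WT relative to the KO, and in each the KO rose. Pde8a, a cyclic AMP phosphodiesterase, had 131 and 109 counts in WT while the KO went from 149 to 300, a difference of -1.18 (interval -1.64 to -0.71). Rgs16, a regulator of G protein signalling, Egr2, Churc1 and Arhgap45 were higher in WT, and in each the KO fell. Rgs16 had 57, 109, 287 and 311 counts in WT, against 78, 101, 82 and 33 in the KO, a difference of 1.51 (interval 0.89 to 2.13). Only Fam13c and Lpcat2 among the lowest 6, and Gbp2 among the highest 6, were themselves called in WT. Lpcat2, an acyltransferase of phospholipid remodelling, went from 126 to 67 counts in WT while the KO had 56 and 75.

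Further lists are given here with their shares, where 4.05% of all genes rose in WT and 3.12% fell. Of 19 mRNA decay regulators only Tob1 (5.26%), an antiproliferative adaptor of deadenylation, was called, rising from 83 to 143 counts (0.80). Zfp36 (tristetraprolin) had 456 and 337 (-0.42). Of 15 MAP kinase phosphatase and Sprouty genes, Dusp14 and Dusp16 fell (13.3%), Dusp14 at only 25 and 7 counts. Single members rose in the lists of TGF-beta and BMP signalling (Smad3, 0.67) and p53 targets (Sesn1, 0.67), of 16 and 19 genes (6.25% and 5.26%). Klf10, induced by TGF-beta, had 72, 90, 982 and 988 counts, a rise that was complete by 45 min in WT. The 11 Kruppel-like factors gave 1 call, the fall of Klf7 (9.09%). None of 20 ribosomal protein, 17 heat shock and unfolded protein response, or 14 nuclear long noncoding RNA genes was called in WT. Sox9 rose among 3 cartilage and bone markers (0.68) and Nes among 3 neural markers (0.60, a call lost when the GC trend was removed). With 3 genes in each of these lists, 1 call is 33.3%. None of 3 endothelial markers was called.

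The WT step also varied with gene span and base composition, which the choice of genes did not use. Of 1699 genes spanning over 100 kb, 38 rose (2.24%, against 4.05% of all genes) and 83 fell (4.89%, against 3.12%). Their median WT step was -0.13 and their KO median -0.02. The numbers called depended on scaling, since on total counts 66 of these genes rose, 43 fell and the WT median was -0.02. Over all genes the WT median was 0.00 with TMM and 0.12 on total counts, so the long genes lay under it on both scalings. Genes under 10 kb had a WT median of 0.03, with 211 of 3898 higher and 169 lower. Their KO median was -0.05, with 158 higher and 251 lower. Of the 57 late genes over 100 kb, 13 rose (22.8%) and 1 fell (1.75%), where 13.1% and 4.21% of all late genes did. Their median WT step was 0.12, as was that of all late genes. In the KO 6 of the 57 rose (10.5%) and 4 fell. Those that rose in WT included Hivep1, which spans 133006 bases, and Traf3, which spans 100784. By GC content, the highest quintile of 2567 genes had 173 higher (6.74%) and 30 lower (1.17%). The lowest quintile, also of 2567, had 74 higher (2.88%) and 120 lower (4.67%). In the KO the counts were 124 and 80 in the highest quintile and 75 and 145 in the lowest. Within each GC quintile the median step of genes over 100 kb lay under that of genes under 10 kb in WT, at -0.01 against 0.08 in the highest quintile and -0.15 against -0.05 in the lowest. In the KO the median of the long genes lay over that of the short genes in every quintile but the lowest. It was 0.02 against -0.04 in the highest quintile and -0.08 against -0.05 in the lowest.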

How the data were processed

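The deposited table holds raw read counts per gene, per its header and values, with mm10 coordinates; the submitters' processing notes name cutadapt 1.12, STAR, featureCounts 1.5.0 and DESeq2 and the build mm10. The libraries came from a stranded kit, per the labels' protocols, but the sources used here do not state the strand setting of the counting, so overlapping, antisense and near-identical genes are uncertain. From these counts, TMM factors over all 8 libraries were computed with edgeR 4.0.16 on genes with at least 10 counts in 2 libraries. A step is the log2 ratio of scaled counts with an exact Clopper-Pearson 95% interval. A difference of steps has a Wald interval after adding 0.5 to each count. The shared step was tested with edgeR's quasi-likelihood test (genotype and time, Benjamini-Hochberg over 12882 genes, threshold 0.05), with DESeq2 1.42.0 as alternative; DESeq2 left 6244 genes without an adjusted p. The scripts were tested on simulated data. Gene spans come from the deposited coordinates and GC content from GENCODE transcripts. Alternatives were other scalings, count floors and fold limits, and a GC and a ribosomal protein correction chosen after seeing the data. The genes, the 34 lists and the tests were chosen with earlier results of these data known.

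Genes named were the 12 highest and 12 lowest called WT steps at 100 counts or more without gene models, 36 TNF genes, the 2 highest and 2 lowest called members of each list, the 10 highest and lowest shared steps and the 6 highest and lowest differences under the same filter. Others are given as list members or were chosen after their values were seen. A few genes that the rule names are not reported here. Depth ranged from 12674536 to 15402373 counts in the 4 libraries at 45 and 60 min, and precision is that of counting alone.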

Additional observations from a re-analysis of the deposited data

Results flagged for a closer look

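Gbp2 went opposite ways in the genotypes, its single WT pair rising by 1.02 and its single KO pair stepping by -1.08 on the log2 scale, a difference of 2.08 (counting interval 1.27 to 2.89). The KO counts behind it were 40 and 20. With 1 library a side the difference was not tested.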

How the results depend on the processing

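Each step within a genotype rests on 1 library a side, so no library could be left out of it; the shared step, with genotype as a term, is the only fit over 2 libraries a side. Over 15 counts of calls and 106 alternatives, 66 stayed within 1.5 times and 40 did not; among 103 named genes, 14 of 378 alternatives for called steps ended the call, no called step changed sign, and 5 of 618 alternatives turned the sign of a step that was not called (on total counts Nfkb1 to 0.06, Nfkb2 to 0.04, Egr2 to 0.05 and mt-Rnr2 to 0.07, and Nfkb1 to 0.01 without the GC trend). On total counts, the calls became 874 higher and 230 lower in WT, 2677 and 65 in the KO, and 172 and 1470 for the difference; early lower became 12, late lower 16, over 100 kb 66 higher and 43 lower, and shared lower 15. At a 2-fold limit they were 144 and 139 in WT, 99 and 121 in the KO, 201 and 149 for the difference, 0 and 7 in early, 31 and 5 in late genes, 13 and 15 over 100 kb, and 3 antigen presentation genes. With the interval alone they were 1741 and 1741 in WT, 1880 and 1692 in the KO, 1238 and 1313 for the difference, and 14 antigen presentation genes. A floor of 50 counts left 267 lower in WT. With ribosomal protein genes set to 0, an alternative chosen after seeing the data, the KO had 1037 higher and 193 lower and the difference 271 and 953. The shared step had 13 higher and 25 lower with DESeq2, and 0 and 2 in edgeR over all 8 libraries. Removing the GC trend, also chosen after seeing the data, ended 6 calls among named genes (Tnfaip3, Ifit3b, Gem, Socs1, Dbp and Nes), and total counts ended 8 (Tnfaip3, Rel, Cxcl2, Nfkbid, Ifit3b, Mx1, Gem and Csf1r). The causes were not tested.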
